A study of Arabidopsis thaliana with 20 samples.

Results

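The genes described here are the nuclear genes for the light-harvesting antenna and the photosystem subunits of Arabidopsis thaliana. They were chosen by locus, a rule that uses no measured value: 40 loci of the LHCA, LHCB, PSA and PSB families, each reached by the probes whose transcript identifier maps to the locus. The choice was made with earlier results of these data known. The array held 124 such probes among 43603, and all 124 passed the filter on dim probes. Of the 40 genes, 34 had more than 1 probe, up to 9, and 6 had 1. Unless a probe is named, each gene is represented by its brightest tested probe, by mean signal.

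RNA came from leaves and from epidermal preparations enriched for stomata, called stomata below, of 5-week-old plants, and was hybridised to 20 one-colour Agilent arrays. The plants were wild-type Col-0 or bam1, a T-DNA insertion line in the beta-amylase gene BAM1, and were either watered (control) or kept under mild drought for 5 days, with water held back to lower the soil moisture and topped up where needed (drought). The labels give a plant age of 5 weeks in one field and a higher age at the start of drought in another. Each array held pooled material of several plants. Each leaf group had 3 arrays except Col-0 drought with 2, and each stomatal group had 2 except Col-0 control with 3. The bam1 plants are a single insertion line, and for the stomatal preparations the larger veins were cut out of the leaves before blending and the epidermal fragments were then collected, so that other cells of the epidermis can remain in them.

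Light-harvesting proteins bind chlorophyll and pass excitation energy to the reaction centres of photosystem I and photosystem II in the thylakoid membrane. The LHCA proteins form the antenna of photosystem I. LHCB1, LHCB2 and LHCB3 form the major trimeric antenna of photosystem II (LHCII), and LHCB4, LHCB5 and LHCB6 are minor antenna proteins that link the trimers to the core. PSA genes encode subunits of photosystem I, PSBO, PSBP and PSBQ stabilise the oxygen-evolving complex, and PSBS takes part in the dissipation of excess energy as heat. Mesophyll cells carry most chloroplasts of a leaf, while guard cells hold fewer and smaller ones. The array carried probes for nuclear genes only among the lists used here, since 0 of 9 plastid-encoded photosystem genes had a matched probe. Probe sequences were not used here, so cross-hybridisation among the near-identical LHCB1 copies and LHCB2 copies cannot be judged, and a value of such a gene may include its paralogs.

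Several arrays stood apart. The median processed signal ranged from 162.7 to 576.2 over the arrays, between 63.2% and 75.4% of spots lay well above background, and 0 spots were saturated. The highest median was on leaf bam1 control replicate 2, and the next was 302.7. On leaf bam1 control replicate 2 PSAD1 (15.50) had its lowest and LHCA2 (17.93) its highest normalised value. The members lay a median of -0.02 from their mean there. On leaf Col-0 control replicate 2, 46.9% of the brightest 1% of spots carried an outlier mark and were set to missing, against 0.228% to 12.3% on the other arrays, and 22 of the 40 member genes had no value there. The members that were measured on that array lay a median of 0.64 above their mean on the log2 scale, and 0.17 with the marked spots kept. On the other 19 arrays this median deviation lay between -0.07 and 0.16. The BAM1 signal was 10.9 to 14.0 on 9 of the 10 arrays labelled Col-0 and 7.81 on stomata Col-0 drought replicate 2, within the range of 6.45 to 9.71 on the 10 arrays labelled bam1, so that array goes against its genotype label and is called by its label throughout. Of the bam1 arrays, 9 lay between 6.45 and 8.24, and stomata bam1 control replicate 2 lay at 9.71, which was not settled further. Where leaving out 1 of the 3 arrays named for their outlier marks or BAM1 signal ended or made the call of a member in a tissue or drought comparison, or ended a call printed for another gene, the value without it is given below. The 12 guard cell markers (for example KAT1, a potassium channel, and MYB60, a guard cell transcription factor) were each above background on at least 1 array of every group. Their summed log2 signal was 12.73 to 13.46 in leaf and 15.63 to 16.96 in stomata.

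The members sat at the top of the signal range. Of the 100 probes with the highest mean signal on the array, 43 belonged to them, and on all 20 arrays a member probe held the highest normalised value, 18.61 on the log2 scale. In 33 of the 40 genes the probe that stands for the gene had a mean log2 signal of 16 or more, and in 26 it was 17 or more. This describes the place of probes in the scanner's range and is no comparison of transcript levels between genes. All 40 genes were well above background on all 20 arrays, and 15 had a value on every array. In bulk tissue, fewer cells that express a gene and less RNA per cell cannot be told apart.

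Stomata were compared with leaf within each genotype and condition. The arrays lay on 6 slides. A slide held both tissues in Col-0 control alone, so in the other comparisons tissue and slide cannot be told apart from the arrays compared. At the probes standing for the genes and after quantile normalisation, most members had nearly the same signal in both tissues. Quantile normalisation gives every array the same spread of values, so a shift shared by many of the brightest probes could not show fully. In control plants of Col-0, 3 of 39 members with a value were lower in stomata and 0 were higher by the moderated test of limma (Benjamini-Hochberg adjusted p under 0.05 and at least 2-fold). The 3 were PSAH2, PSAL and PSAE2, all peripheral subunits of photosystem I. Among all tested probes 24.4% were called in that comparison, 12.5% lower and 11.9% higher. Among those with a mean log2 signal of 17 or more, members included, 1.44% were called lower and 2.88% higher. In bam1 control, Col-0 drought and bam1 drought that range had 1.43%, 0.714% and 1.47% called lower, and 5.00%, 3.57% and 4.41% higher. In bam1 control plants 2 of 40 members were called, both higher in stomata, where 22.0% of all probes were called, 11.0% in each direction. Under drought it was 1 higher and 2 lower of 39 in Col-0 (background 21.2%, 10.7% higher and 10.5% lower) and 1 higher and 0 lower of 37 in bam1 (background 22.9%, 12.2% higher and 10.7% lower). The median log2 difference of the members was -0.09, 0.02, -0.06 and 0.05 in the order Col-0 control, bam1 control, Col-0 drought and bam1 drought, beside -0.03, 0.01, 0.01 and 0.05 over all tested probes. Scaled by the 75th percentile in place of quantiles, the member median was 0.14 in Col-0 control and 0.61 in bam1 control, beside 0.03 and 0.04 over all probes. With the brightest probe measured on all 20 arrays standing for each gene, the Col-0 control median was -0.39 and 10 members were called. By number of adjusted p values under 0.05 whatever the size, 1 member was higher and 5 lower in Col-0 control, 3 and 2 in bam1 control, 1 and 3 in Col-0 drought, and 2 and 4 in bam1 drought. The shares of all probes at that threshold were 24.9% higher and 28.1% lower in Col-0 control, 23.0% and 22.7% in bam1 control, 21.5% and 19.8% in Col-0 drought, and 25.4% and 21.9% in bam1 drought.

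**Figure D1:**
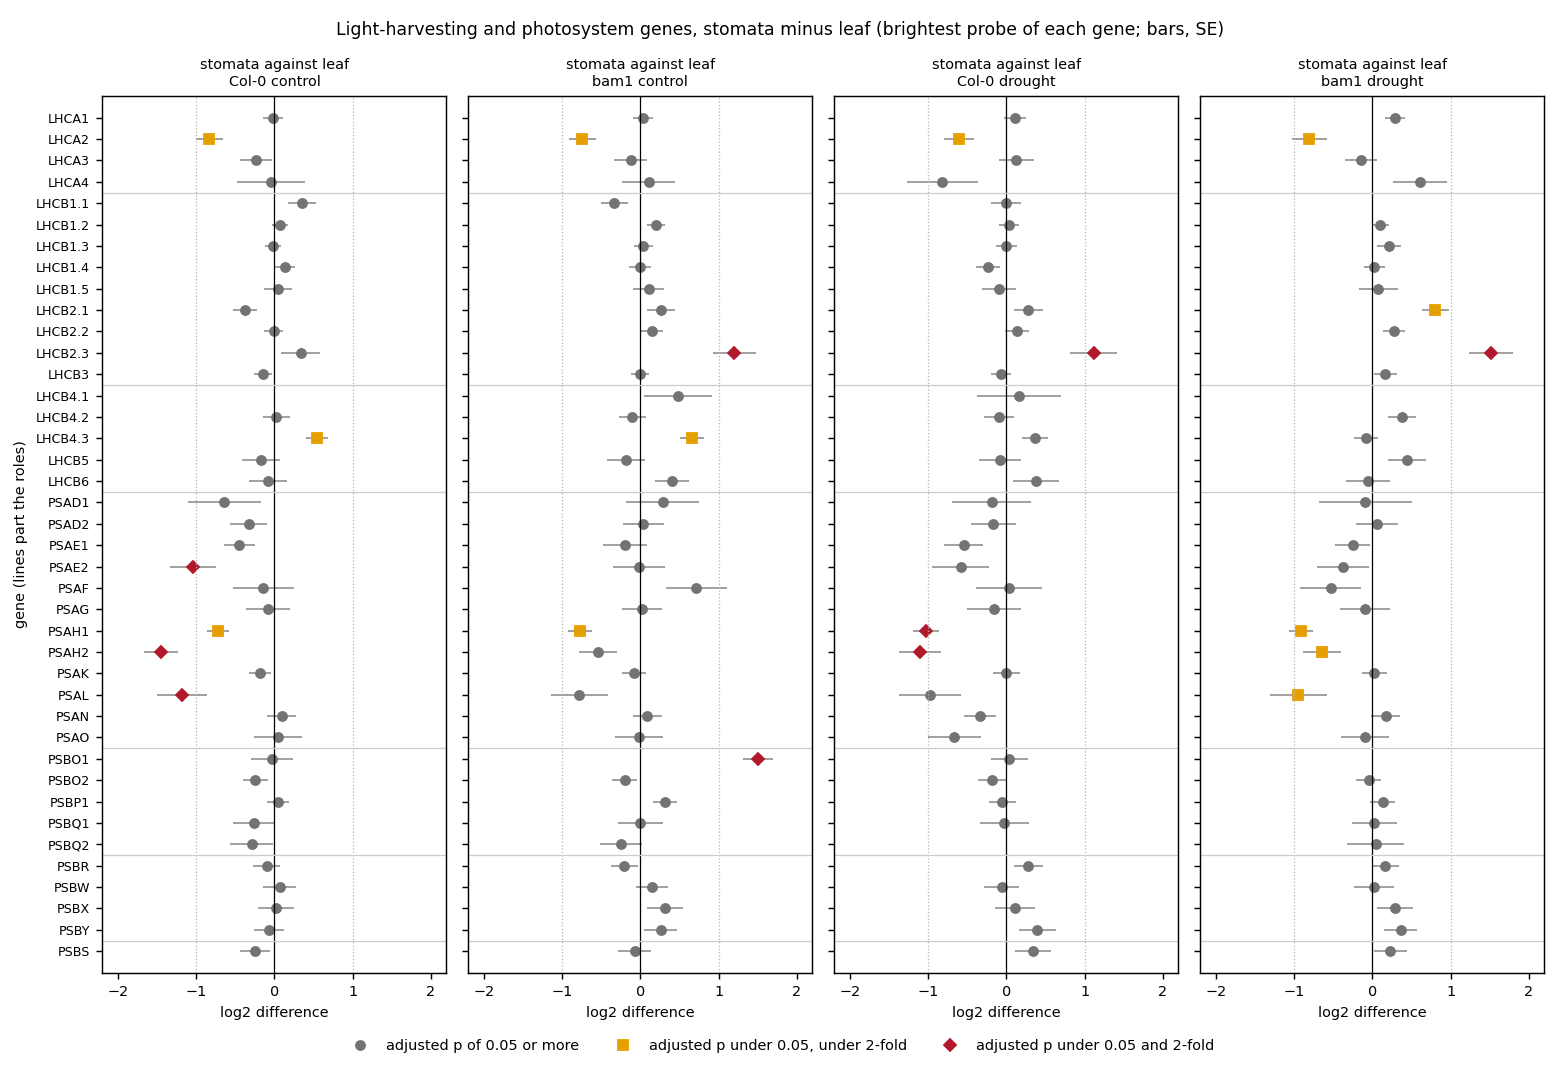
Log2 difference between stomata and leaf for each of the 40 genes (1 row a gene, ordered by role; bars, SE of the fit) in Col-0 control, bam1 control, Col-0 drought and bam1 drought, with dotted lines at 2-fold. Most genes lie near 0, LHCB2.3 lies to the right in all 4 panels and past both thresholds in 3 of them, and PSAH1, PSAH2, PSAL and LHCA2 lie to the left in all of them.

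Among the antenna genes, LHCB2.3 (AT3G27690), a member of the LHCB2 group whose proteins are phosphorylated when LHCII moves between photosystems, was higher in stomata. Its log2 signal in leaf was 15.79, 17.14 and 15.87 in Col-0 control, 15.49, 15.46 and 15.39 in bam1 control, 15.25 and 15.25 in Col-0 drought, and 14.82, 14.83 and 14.74 in bam1 drought. In stomata it was 16.65, 16.61 and 16.54, then 16.54 and 16.75, then 16.30 and 16.43, then 16.38 and 16.25, in the same order of groups. Apart from the leaf array at 17.14, which is the array with the missing bright spots, every stomatal value lay above every leaf value of its genotype and condition. The difference was 1.2 ± 0.28 (SE) in bam1 control (adjusted p = 0.0027), 1.11 ± 0.30 in Col-0 drought (adjusted p = 0.0087) and 1.52 ± 0.28 in bam1 drought (adjusted p = 0.00046), that is 2.3-fold, 2.17-fold and 2.86-fold. In Col-0 control it was 0.34 ± 0.25 and did not pass (adjusted p = 0.27). Without leaf Col-0 control replicate 2 the Col-0 control difference was 0.77 ± 0.10, and it was 0.66 ± 0.12 with the marked spots kept. On the slide that held both tissues, with 1 array of each, the difference was 0.86. Without the stomatal array that goes against its genotype label, the Col-0 drought difference was 1.05. The second LHCB2.3 probe (A_84_P808706) differed by 0.29, 1.06, 0.76 and 1.12 in the order Col-0 control, bam1 control, Col-0 drought and bam1 drought.

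The probes standing for the 5 LHCB1 genes and LHCB2.2 had mean log2 signals of 18.11 to 18.53, close to 18.61, which is the highest value that quantile normalisation leaves on an array, so a higher signal in either tissue could not show fully there. The same limit applies to the probes standing for LHCA1, LHCB6, PSAF, PSBR and PSBW, with mean log2 signals of 18.08 to 18.46. The 5 LHCB1 genes and LHCB3 gave differences between -0.33 and 0.35, and none of them passed the adjusted p in any of the 4 tissue comparisons. LHCB2.1 (AT2G05100) was 0.80 ± 0.17 higher in stomata of bam1 under drought (adjusted p = 0.0017), and its differences of -0.38, 0.26 and 0.28 in Col-0 control, bam1 control and Col-0 drought did not pass. LHCB1.3 (AT1G29930) had a mean log2 signal of 18.53 and held the top value of 18.61 on 9 of the 19 arrays with a value. Its signal was 18.61, 18.61 and 18.49 in leaf Col-0 control, 18.52 and 18.61 in leaf Col-0 drought, 18.43, 18.61 and 18.49 in leaf bam1 control, and 18.49, 18.20 and 18.52 in leaf bam1 drought. In stomata it was 18.61, 18.61 and 18.43 in Col-0 control, 18.61 and 18.52 in Col-0 drought, 18.61 and 18.49 in bam1 control, and 18.61 on the array of bam1 drought that had a value. These values overlap between tissues in 3 of the 4 comparisons, and the group with 1 value is the exception.

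Of the minor antenna, LHCB4.3 (AT2G40100), a rarer form of LHCB4, was higher in stomata of control plants. Its log2 signal was 12.30, 12.37 and 12.05 in leaf and 12.88, 12.57 and 12.90 in stomata of Col-0 control, and 11.74, 11.47 and 11.76 in leaf and 12.30 and 12.34 in stomata of bam1 control. Leaf and stomatal arrays did not overlap in either genotype. The differences of 0.54 ± 0.14 (adjusted p = 0.0039) and 0.66 ± 0.15 (adjusted p = 0.0028) passed the adjusted p and were under 2-fold. The first was 0.61 without leaf Col-0 control replicate 2, and the second was 0.64 without stomata bam1 control replicate 2. Under drought the differences were 0.36 ± 0.17 in Col-0 and -0.08 ± 0.15 in bam1 and did not pass. The probe standing for LHCB4.1 had no value on 10 of the 20 arrays.

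In the photosystem I group, the signals that were lower in stomata belonged to PSAH1 (AT3G16140) and PSAH2 (AT1G52230), which form the docking side for LHCII, to PSAL (AT4G12800), beside them in the complex, and to PSAE2 (AT2G20260), on the side where ferredoxin binds. PSAH2 had log2 signals of 15.01, 16.00 and 15.05 in leaf and 13.94, 13.89 and 13.87 in stomata of Col-0 control, and the groups did not overlap. It differed by -1.45 ± 0.22 there (2.73-fold, adjusted p = 7.4e-05), by -0.54 ± 0.25 in bam1 control (adjusted p = 0.086), by -1.10 ± 0.27 in Col-0 drought (adjusted p = 0.0046) and by -0.64 ± 0.25 in bam1 drought (adjusted p = 0.043, under 2-fold). Without leaf Col-0 control replicate 2 the Col-0 control value was -1.13, and on the slide that held both tissues it was -1.06. Without stomata Col-0 drought replicate 2 the Col-0 drought value was -0.97, under 2-fold.

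PSAH1 was lower in stomata at an adjusted p under 0.05 in all 4 comparisons. Its log2 signal was 14.78, 14.85 and 15.17 in leaf and 14.26, 14.13 and 14.24 in stomata of Col-0 control, and 15.04, 15.03 and 15.24 against 14.11 and 14.54 in bam1 control. Under drought it was 14.89 and 14.75 against 13.72 and 13.85 in Col-0, and 14.85, 15.06 and 14.73 against 14.01 and 13.93 in bam1. All stomatal arrays lay below all leaf arrays. The differences were -0.72 ± 0.14, -0.78 ± 0.15, -1.03 ± 0.17 and -0.91 ± 0.15 in the order Col-0 control, bam1 control, Col-0 drought and bam1 drought, and only that in Col-0 drought reached 2-fold (adjusted p = 0.00025). Without leaf Col-0 drought replicate 1 or stomata Col-0 drought replicate 1 that value was -0.96 or -0.97, under 2-fold, and without stomata Col-0 drought replicate 2 it was -1.09.

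PSAL had log2 signals of 15.87, 17.24 and 15.76 in leaf and 14.69, 15.12 and 15.52 in stomata of Col-0 control, a difference of -1.18 ± 0.32 (adjusted p = 0.0069). It was -0.78 ± 0.36 in bam1 control, -0.98 ± 0.40 in Col-0 drought and -0.95 ± 0.36 in bam1 drought, of which the last passed the adjusted p (0.044). PSAE2 had 15.78, 17.25 and 15.85 in leaf and 15.42, 15.01 and 15.33 in stomata of Col-0 control, a difference of -1.04 ± 0.30 (adjusted p = 0.0085), and -0.02, -0.58 and -0.38 in the 3 other comparisons, which did not pass. The groups did not overlap in Col-0 control for either gene, but the highest leaf value of both lay on the array with the missing bright spots. Without it PSAL differed by -0.71 and PSAE2 by -0.56, both under 2-fold. Without stomata bam1 control replicate 2, PSAL was called in bam1 control as well (-1.20, adjusted p = 0.043). The PSAL call was also lost without stomata Col-0 control replicate 1 (-0.97), and the PSAE2 call without stomata Col-0 control replicate 2 (-0.92). The 8 other photosystem I genes did not pass in any tissue comparison.

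Among the LHCA genes, LHCA2 (AT3G61470) was lower in stomata in all 4 comparisons, under 2-fold. It passed the adjusted p of 0.05 in Col-0 control, bam1 control and Col-0 drought, while LHCA1, LHCA3 and LHCA4 did not pass. In bam1 drought its difference rested on a single stomatal array, replicate 1. LHCA2 and PSAH1 were named after their values were seen. The log2 signal of LHCA2 ran from 17.18 to 17.93 over the 10 leaf arrays with a value and from 16.44 to 16.98 over the 8 stomatal arrays with a value, so the tissues did not overlap. The differences were -0.83 ± 0.17, -0.74 ± 0.17, -0.60 ± 0.19 and -0.81 ± 0.22 in the order Col-0 control, bam1 control, Col-0 drought and bam1 drought. Without stomata Col-0 drought replicate 2 that in Col-0 drought was -0.63 and did not pass (adjusted p = 0.062).

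**Figure D2:**
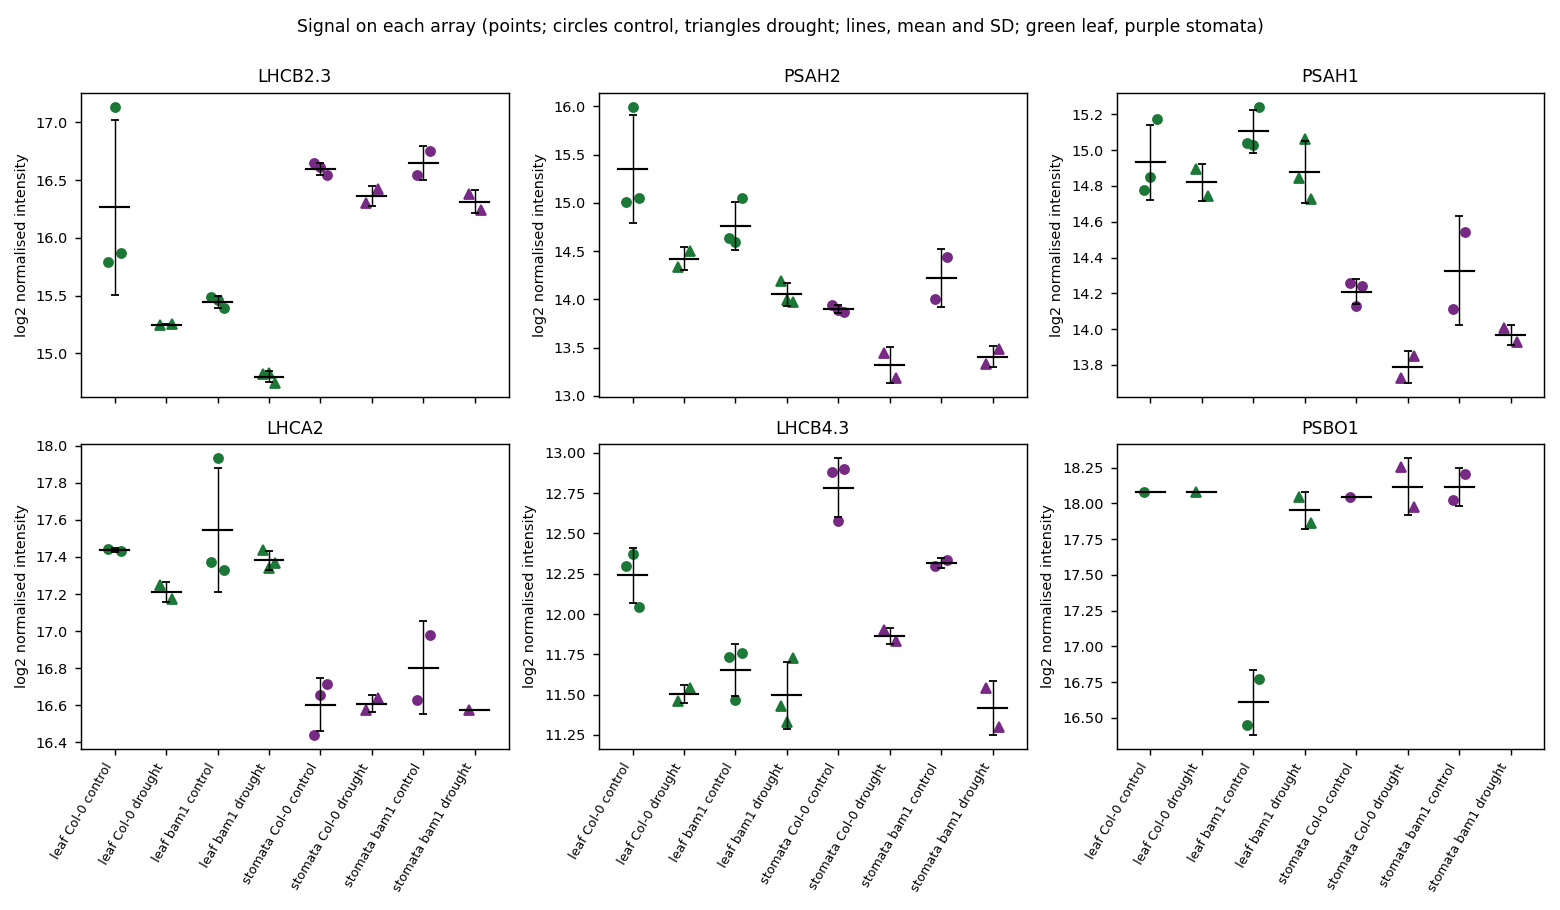
Log2 normalised intensity of 6 genes on every array with a value, by group (green, leaf; purple, stomata; circles, control; triangles, drought; black lines, mean and SD, with no SD for a group with 1 value). LHCB2.3 lies higher and PSAH1 and LHCA2 lie lower in stomata, LHCB4.3 is lower after drought in 3 of the 4 pairs of groups, and PSBO1 has values on 11 of 20 arrays.

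The oxygen-evolving complex held 1 called gene, PSBO1 (AT5G66570), the manganese-stabilising protein, and its probes did not point the same way. The probe standing for the gene (A_84_P808897) had no value on 9 arrays. It was measured at 16.45 and 16.77 in leaf bam1 control, 18.04 and 17.86 in leaf bam1 drought, then 18.02 and 18.20 in bam1 control stomata, 18.26 and 17.97 in stomata Col-0 drought, and on 1 array each at 18.08, 18.08 and 18.04 in leaf Col-0 control, leaf Col-0 drought and stomata Col-0 control. Both leaf bam1 control values lay below all others. The difference between stomata and leaf in bam1 control was 1.5 ± 0.19 (adjusted p = 0.00091), with 2 values a group. A second PSBO1 probe (A_84_P15060) was called in the opposite direction in the same comparison (-1.79), with 17.48 and 14.63 on the 2 stomatal arrays. The third (A_84_P855937), which had a value on every array, differed by -1.23, -0.60, -0.85 and -1.18 in the order Col-0 control, bam1 control, Col-0 drought and bam1 drought, and was called lower in the first and the last. PSBO2, PSBP1, PSBQ1 and PSBQ2 did not pass at the probes standing for them, nor did PSBR, PSBW, PSBX and PSBY, small photosystem II subunits, or PSBS.

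Probes of the same genes with a lower signal were also compared between the tissues. Of the 124 member probes, 53 from 32 loci had a mean log2 signal under 16, and 40 of these 53 had differences below 0 in all 4 comparisons, whatever the test. In Col-0 control 19 of the 53 were called lower and 0 higher, with a median of -0.79, where 12.5% of all tested probes were called lower. In Col-0 drought 11 dim probes were called lower and 1 higher (median -0.58, 10.5% of all probes lower), and in bam1 drought 15 lower and 2 higher (median -0.84, 10.7% of all probes lower). In bam1 control 2 were called lower and 2 higher (median -0.38), a lower count than the 11.0% of all probes called in each direction would give. Of the member probes of 16 or more with a value, 2 of 69 were called lower and 0 higher in Col-0 control (median -0.17), 1 of 70 lower and 2 higher in bam1 control (median 0.00), 0 of 69 in Col-0 drought (median -0.09) and 1 of 66 lower and 0 higher in bam1 drought (median 0.04). The same median over all tested probes of 14 to under 16 was -0.23 in Col-0 control, -0.02 in bam1 control, -0.05 in Col-0 drought and 0.06 in bam1 drought, beside -1.03, -0.45, -0.72 and -0.86 for the 25 member probes of that range. In that range 12.1%, 7.47%, 7.95% and 7.83% of all probes were called lower, and 13, 0, 5 and 5 of the 25 member probes. At loci with probes on both sides of 16, the dimmer probes lay below the brighter ones in 21 of 24 loci in Col-0 control, 19 of 25 in bam1 control, 23 of 24 in Col-0 drought and 24 of 24 in bam1 drought. Scaled by the 75th percentile, the medians of the member probes of 16 or more were -0.004, 0.57, -0.17 and -0.05. Those of the dim probes were then -0.83, -0.44, -0.80 and -0.89, both in the order Col-0 control, bam1 control, Col-0 drought and bam1 drought. What sets the bright and dim probes of a gene apart was not tested. Without leaf Col-0 control replicate 2 the count of dim probes lower in Col-0 control was 9 and the median -0.65. Without stomata bam1 control replicate 2 the count in bam1 control was 8 and the median -0.60, without replicate 1 they were 1 and -0.12, and without leaf bam1 control replicate 1 they were 1 and -0.33. Without stomata Col-0 drought replicate 2 the count in Col-0 drought was 8 and the median -0.44, and with slide as a block they were 3 and -0.53.

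**Figure D3:**
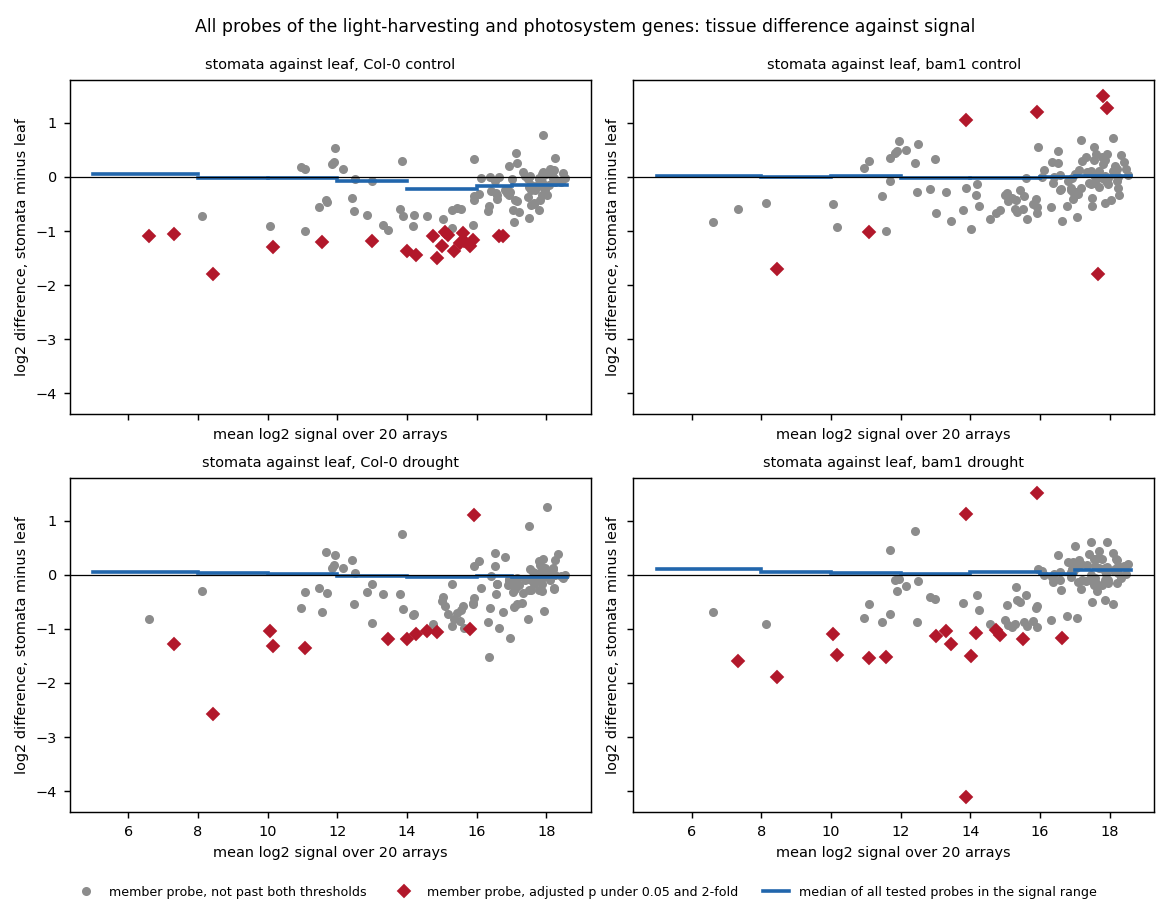
Log2 difference between stomata and leaf for every member probe (points) against its mean log2 signal over the 20 arrays, in the 4 tissue comparisons, with the median of all tested probes in each signal range as a blue line. Member probes under 16 lie mostly below 0. Those of 17 or more lie around 0, where quantile normalisation limits a shared shift. In Col-0 control members were 49 of the 139 probes behind the blue line of that range. The red diamonds are the probes with an adjusted p under 0.05 and a 2-fold difference.

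The dim probes differed by role. All 14 dim probes of the photosystem I group had differences below 0 in each of the 4 comparisons, with medians of -1.05, -0.58, -0.81 and -1.0, and 8, 0, 4 and 7 of them were called. The 7 of the LHCA genes were likewise all below 0, with medians between -0.99 and -0.62, as were the 4 of the oxygen-evolving complex, with medians between -1.22 and -0.71. Of the 9 probes of the minor antenna 8, 8, 8 and 9 were below 0. The 15 probes of the major antenna stood apart from these: 8, 3, 6 and 10 of them were below 0, their medians were -0.04, 0.35, 0.13 and -0.20, and 0 were called lower in any of the 4 tissue comparisons, with 3, 3, 2 and 7 at an unadjusted p under 0.05 in either direction. No test of the difference between roles was run.

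Named dim probes show the size of these differences; they were chosen after their values were seen. The second probe of PSBO2 (AT3G50820), a close relative of PSBO1 (A_84_P808064), was called lower in all 4 comparisons, at -1.80, -1.70, -2.57 and -1.89, and was the only one of the 53 for which this held. Its log2 signal was 9.0 to 9.82 on the leaf arrays and 6.27 to 7.92 on the stomatal arrays. The stomatal values lay low on the scale, about where BAM1 lay on most arrays labelled bam1 (6.45 to 8.24). How far the size of these differences rests on background signal was not tested. The second probe of PSBS (AT1G44575; probe A_84_P806273) differed by -1.29, -0.93, -1.32 and -1.47, where the probe standing for PSBS gave -0.25, -0.08, 0.34 and 0.23. The third probe of PSAD1 (AT4G02770), a stromal subunit that docks ferredoxin, at probe A_84_P801201, differed by -1.36, -0.96, -1.18 and -1.5, where the probe standing for PSAD1 gave -0.64, 0.29, -0.19 and -0.09. A probe of LHCA2 (A_84_P808589) differed by -1.5, -0.62, -1.06 and -1.11. The value of -4.11 for a PSAE1 probe (A_84_P805026) in bam1 drought rested on 1 array, stomata bam1 drought replicate 1, at 6.90, while the other 19 arrays lay between 13.6 and 14.9.

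The drought comparisons asked how the members moved after 5 days of mild drought in each tissue and genotype. A slide held both conditions in leaf of each genotype. None did in stomata, where condition and slide cannot be told apart from the arrays compared. In leaf of Col-0, 1 of 38 members with a value was lower and 0 higher (5.46% of all probes called, 2.09% higher and 3.37% lower), and in leaf of bam1 1 of 40 was higher and 0 lower (4.87%, 1.43% higher and 3.44% lower). In stomata 0 of 40 in Col-0 (3.40%, 1.78% higher and 1.62% lower) and 0 of 37 in bam1 (5.77%, 2.71% higher and 3.05% lower) were called by limma, with 3 and 2 at an unadjusted p under 0.05, and 0 in both by the t-test named in the study's methods. Their medians were -0.11 in leaf Col-0, -0.10 in leaf bam1, -0.04 in stomata Col-0 and -0.01 in stomata bam1, beside medians over all probes of -0.01, 0.01, 0.02 and 0.03. Scaled by the 75th percentile they were 0.23 in leaf bam1, -0.36 in stomata Col-0 and -0.33 in stomata bam1, beside 0.02, -0.04 and -0.02 over all probes. Regardless of size, 4 members were lower at an adjusted p under 0.05 in leaf of Col-0, and 1 was lower in each of the 3 other comparisons, beside PSBO1, which was higher in leaf of bam1. The shares of all probes at that threshold were 5.83% higher and 8.36% lower in leaf Col-0, 5.67% and 7.81% in leaf bam1, 5.04% and 3.52% in stomata Col-0, and 6.86% and 5.83% in stomata bam1. Of all probes with a mean log2 signal of 17 or more, 2.14%, 0.00%, 0.00% and 0.735% were called lower in the same order. The shares called higher in that range were 0.00%, 0.714%, 0.00% and 0.00%. Of the drought markers, RD29B and RAB18, which respond to abscisic acid, were 3.19 and 2.62 higher in leaf of Col-0 on the log2 scale, and 2 of 5 markers were called higher in 3 comparisons and 3 of 5 in stomata of bam1. Without stomata Col-0 drought replicate 2 it was 1 in stomata of Col-0, and without stomata bam1 control replicate 2 it was 2 in stomata of bam1.

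**Figure D4:**
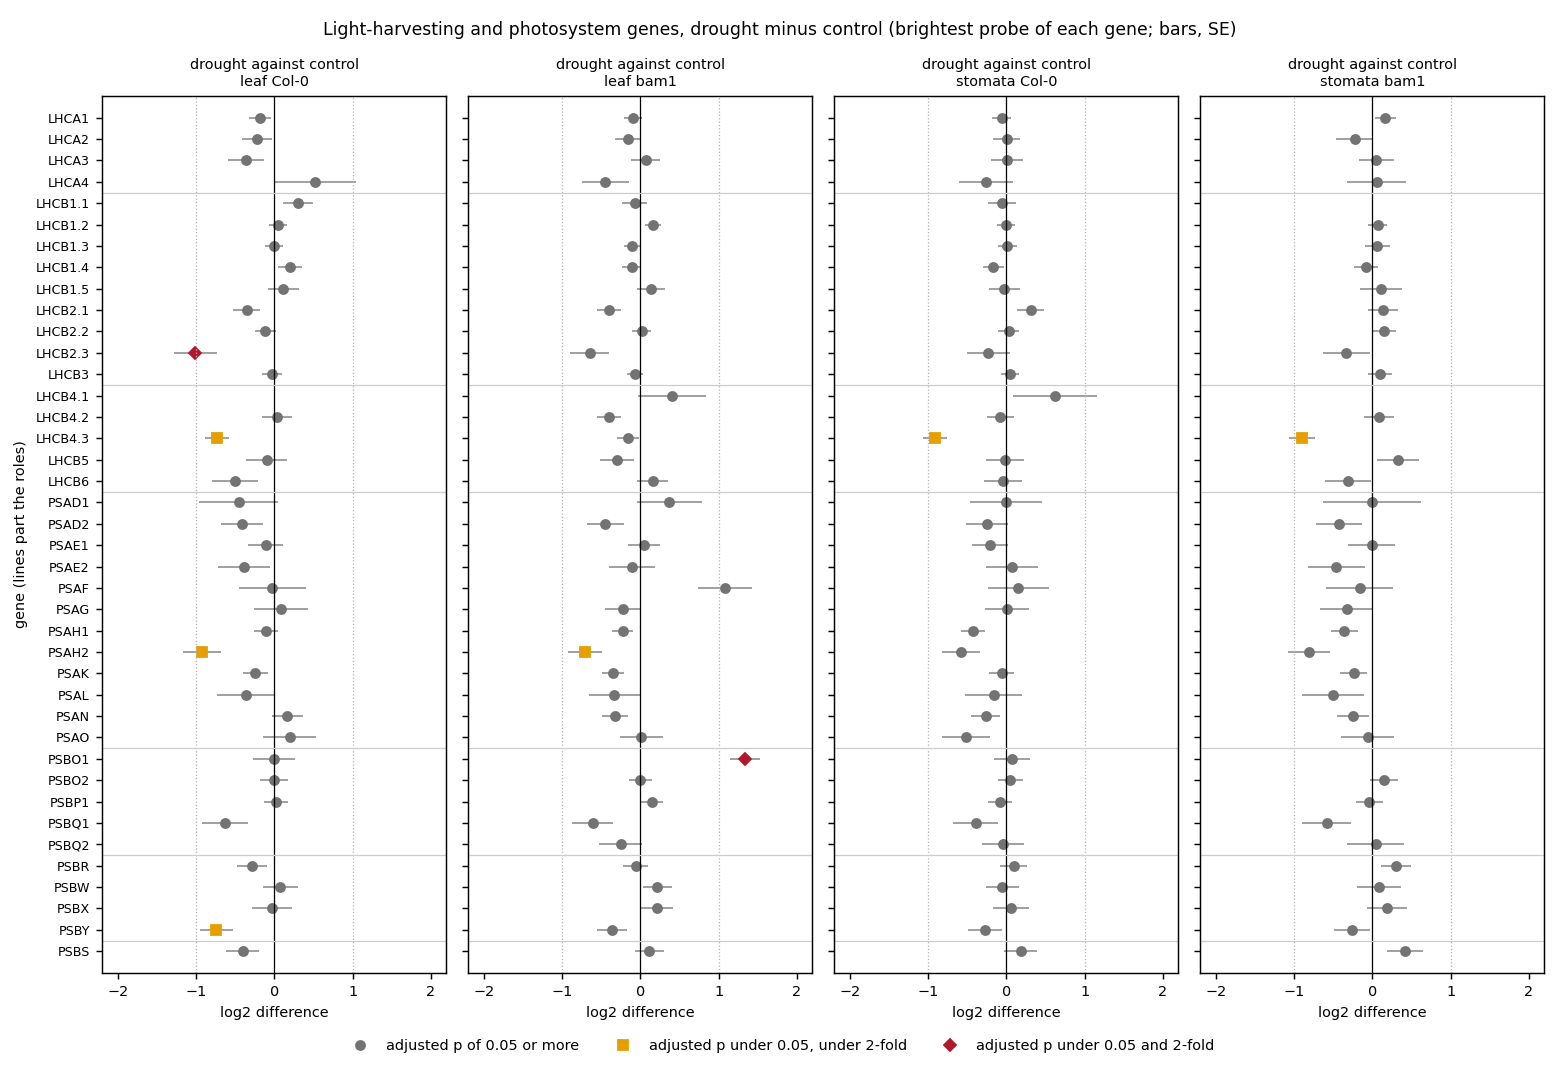
Log2 difference between drought and control for each of the 40 genes (1 row a gene, ordered by role; bars, SE of the fit) in leaf and stomata of Col-0 and bam1, with dotted lines at 2-fold. LHCB4.3 lies to the left at an adjusted p under 0.05 in leaf Col-0 and in stomata of both genotypes, and PSAH2 lies to the left in all 4 panels.

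LHCB4.3 was lower after drought at an adjusted p under 0.05 in 3 of the 4 comparisons. Under drought its log2 signal was 11.46 and 11.54 in leaf of Col-0, 11.43, 11.33 and 11.73 in leaf of bam1, 11.90 and 11.83 in stomata of Col-0, and 11.54 and 11.30 in stomata of bam1, to be set against the control values above. Drought and control arrays did not overlap in leaf of Col-0 or in stomata of either genotype. The log2 change was -0.74 ± 0.15 in Col-0 leaf (adjusted p = 0.0053), -0.92 ± 0.15 in Col-0 stomata (adjusted p = 0.0025) and -0.90 ± 0.17 in bam1 stomata (adjusted p = 0.0035), each under 2-fold. These were -0.67, -0.88 and -0.88, and passed the adjusted p, without leaf Col-0 control replicate 2, stomata Col-0 drought replicate 2 and stomata bam1 control replicate 2 in turn. In leaf of bam1 the change was -0.16 ± 0.14 (adjusted p = 0.51). The difference between the drought changes of stomata and leaf in bam1 was -0.74 ± 0.22 and did not pass (adjusted p = 0.25), and that between bam1 and Col-0 in leaf was 0.58 ± 0.21 (adjusted p = 0.31).

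PSAH2 was lower after drought in both leaf comparisons. Its log2 signal in leaf was 14.34 and 14.51 under drought in Col-0, against 15.01, 16.00 and 15.05 in control, and 14.19, 13.99 and 13.97 against 14.63, 14.60 and 15.05 in bam1. The arrays did not overlap in either genotype. It fell by 0.93 ± 0.25 in Col-0 (adjusted p = 0.021) and by 0.71 ± 0.22 in bam1 (adjusted p = 0.046), under 2-fold in both. In stomata it was 13.45 and 13.19 under drought in Col-0 and 13.33 and 13.48 in bam1, and the changes of -0.58 and -0.81 did not pass. Without leaf Col-0 control replicate 2 the value in leaf of Col-0 was -0.61. On the slides that held both conditions the change was -0.67 in leaf of Col-0 and -1.08 in leaf of bam1.

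The member called lower in leaf of Col-0 was LHCB2.3, at -1.01 ± 0.28 (adjusted p = 0.024), from the values given above. In leaf of bam1 it changed by -0.65 ± 0.25 (adjusted p = 0.10), and in stomata by -0.23 and -0.33, which did not pass. Drought arrays lay below all control arrays in all 4 comparisons. Without leaf Col-0 control replicate 2 the change in leaf of Col-0 was -0.58, and within the slide that held both conditions it was -0.54. The call was also lost without either drought array, at -1.01 and -1.02, and under other scalings and fits, at -0.76 by the 75th percentile, -0.96 with normexp background correction, -0.72 with the authors' matrix or with outlier spots kept, -0.85 with slide as a block, -0.82 with the mean over probes, and -1.01 with only the groups compared or with the t-test of the methods. The second LHCB2.3 probe changed by -0.63, -0.83, -0.16 and -0.77 in leaf Col-0, leaf bam1, stomata Col-0 and stomata bam1. The difference between the drought changes of stomata and leaf in Col-0 was 0.78 ± 0.39 for LHCB2.3 and did not pass (adjusted p = 0.30).

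The member called higher in leaf of bam1 was PSBO1, at 1.34 ± 0.19 (adjusted p = 0.0061), on 2 values a group at the probe with missing arrays, while its probe with a value on every array changed by 0.08. PSBY (AT1G67740) fell by 0.74 ± 0.21 in leaf of Col-0 (adjusted p = 0.032), from 16.51, 17.45 and 16.55 to 16.22 and 15.97. Without leaf Col-0 control replicate 2 this change was -0.44. At single probes, a pair of dim LHCB1.4 probes (A_84_P800855 and A_84_P807037) fell by 1.45 and 1.60 in stomata of bam1. The first had 10.44 and 10.21 under drought against 11.30 and 12.26 in control. The higher control value lay on stomata bam1 control replicate 2, whose BAM1 signal stood apart, so the size of that fall rests partly on this array. Both probes were named after their values were seen.

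The dim member probes leaned lower after drought as well. Of the 53 probes under 16, 51 were below 0 in leaf of Col-0 (median -0.41), 38 in leaf of bam1 (median -0.11), 43 in stomata of Col-0 (median -0.24) and 49 in stomata of bam1 (median -0.51). Without leaf Col-0 control replicate 2, 42 were below 0 in leaf of Col-0 (median -0.31). The median over all tested probes of 14 to under 16 was -0.15, -0.005, -0.01 and 0.08 in the same order. The 25 member probes of that range had medians of -0.45, -0.11, -0.18 and -0.50. Among the 53, the counts called were 2, 0, 0 and 3 lower, and 0 higher, with 22, 9, 12 and 24 at an unadjusted p under 0.05, where 3.37%, 3.44%, 1.62% and 3.05% of all tested probes were called lower. The 2 in leaf of Col-0 were lost without leaf Col-0 control replicate 2 or without either drought array, and with slide as a block, which also left 0 in stomata of bam1. The median in stomata of bam1 was -0.24, with 0 called, without stomata bam1 control replicate 2, and -0.77, with 9 called, without replicate 1. On that replicate 2 the guard cell markers lay 1.09 above their means and on replicate 1 2.12, and the part of this in the result was not tested.

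PSAD1 and PSBS, taken as fixed examples, did not pass in any drought comparison. PSAD1 had log2 signals of 17.76 and 17.80 in leaf Col-0 control, 17.58 and 17.07 in leaf Col-0 drought, 17.63, 15.50 and 17.45 in leaf bam1 control, and 16.89, 17.44 and 17.36 in leaf bam1 drought. In stomata it lay between 17.06 and 17.22 on the 8 arrays with a value. Leaf bam1 control replicate 2 was more than 1 log2 unit below every other array. PSBS had 16.89, 17.62 and 16.62 in leaf Col-0 control, 16.82 and 16.47 in leaf Col-0 drought, 16.66, 16.60 and 16.65 in leaf bam1 control, and 16.79, 16.59 and 16.87 in leaf bam1 drought. In stomata it was 16.75, 16.74 and 16.90 in Col-0 control, 17.03 and 16.93 in Col-0 drought, 16.60 and 16.53 in bam1 control, and 16.94 and 17.02 in bam1 drought. The drought values of PSBS lay above the control values in stomata of both genotypes, by 0.18 ± 0.21 and 0.42 ± 0.23 (adjusted p = 0.66 and 0.27).

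No member was called between bam1 and Col-0. The count was 0 of 39 in leaf control, 0 of 39 in leaf drought, 0 of 40 in stomata control and 0 of 37 in stomata drought by limma, with 9, 2, 1 and 1 at an unadjusted p under 0.05, and 0 in each by the t-test of the methods. Among all probes 0.398%, 0.268%, 0.0587% and 0.0196% were called. In stomata drought 1 of the 2 Col-0 arrays goes against its genotype label. This limits that comparison and the genotype test of drought changes in stomata. A slide held both genotypes in leaf drought alone. LHCB4.3 differed between bam1 and Col-0 by -0.58 ± 0.14 in leaf control, -0.47 ± 0.15 in stomata control and -0.45 ± 0.17 in stomata drought. In leaf drought the difference was -0.01 and the arrays overlapped. None passed (adjusted p = 0.074 in leaf control). The tests of the difference between drought changes, between tissues or between genotypes, called 0 members, where 1.52%, 0.0685%, 0.00979% and 0.0163% of all probes were called for tissue in Col-0, tissue in bam1, genotype in leaf and genotype in stomata. At an unadjusted p under 0.05 these counts were 1, 3, 2 and 0.

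Genes of related pathways moved in both directions between the tissues. In Col-0 control 12.5% of all tested probes were called lower and 11.9% higher. At an adjusted p under 0.05 alone these shares were 28.1% and 24.9%, and those of the other comparisons are given above. Of 23 genes of chlorophyll synthesis, 14 were lower and 3 higher at an adjusted p under 0.05 in Col-0 control (median -0.76), and 5 and 2 reached 2-fold. Those 2 counts were 3 and 2 without leaf Col-0 control replicate 2. HEMA1, which makes the first committed step of tetrapyrrole synthesis, and CAO, which makes chlorophyll b, were higher in stomata, by 1.28 ± 0.15 and 1.29 ± 0.14 in Col-0 control, and both were called in all 4 comparisons. CAO was under 2-fold in Col-0 drought without stomata Col-0 drought replicate 2 (0.95) and in bam1 control without stomata bam1 control replicate 2 (0.98). GSA2 and LIN2, which act early and late before the chlorophyll branch, were lower by -1.28 and -1.14. Of 20 Calvin cycle genes 2 were called lower in Col-0 control (median -0.29): CP12-2, a regulator of the cycle (-1.61), and PRK, phosphoribulokinase (-1.03, and -0.84 without leaf Col-0 control replicate 2). CP12-2 was called in all 4 comparisons, down to -2.18 in bam1 drought. Of 11 genes of electron transport and the ATP synthase 0 were called in any tissue comparison by limma, with 3, 4, 3 and 2 at an adjusted and 4, 4, 5 and 4 at an unadjusted p under 0.05.

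Among 9 light-harvesting-like genes with a value, ELIP1, an early light-induced protein, was higher in stomata by 5.52 ± 0.42 in Col-0 control and by 4.2, 4.42 and 4.23 in bam1 control, Col-0 drought and bam1 drought, while LIL3:1, which anchors late enzymes of chlorophyll synthesis, was called lower in 3 of the 4, at -1.07 in Col-0 control, and in all 4 without stomata bam1 control replicate 2. Of 13 regulators with a value, SIG5, a sigma factor of the plastid polymerase, and HY5, a light-signalling factor, were called higher in all 4, by 2.12 and 1.97 in Col-0 control. NYC1, a chlorophyll b reductase of the breakdown pathway, was called lower in all 4, from -1.1 to -1.5. Of 7 genes of antenna targeting and phosphorylation, TAP38, the phosphatase of LHCII, was called, lower in Col-0 control alone (-1.12), and had no value there without leaf Col-0 control replicate 2.

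After drought these lists moved less. Of all tested probes, 8.36%, 7.81%, 3.52% and 5.83% were lower at an adjusted p under 0.05 in leaf Col-0, leaf bam1, stomata Col-0 and stomata bam1. Of the 23 chlorophyll synthesis genes 11 were lower at an adjusted p under 0.05 in leaf of Col-0 (median -0.57), with GUN5 called (-1.12, and -0.78 without leaf Col-0 control replicate 2), and 4, 0 and 7 were lower in leaf bam1, stomata Col-0 and stomata bam1. FD1, a leaf ferredoxin, was called lower in leaf of Col-0 (-1.03, and -0.94 without that array), and NYE2, a chlorophyll-breakdown gene, higher (1.76). Of 20 Calvin cycle genes 0 were called in any drought comparison by limma, with 6, 2, 2 and 2 at an unadjusted p under 0.05.

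Markers of the cell types in the preparations moved as follows between stomata and leaf. Guard cell markers were called higher for 12, 12, 11 and 11 of 12 genes, with medians of 3.67, 2.70, 3.08 and 3.05 in the order Col-0 control, bam1 control, Col-0 drought and bam1 drought. Of 11 mesophyll markers 0 were called higher and 1, 1, 1 and 2 lower (medians -0.43, -0.35, -0.19 and -0.44), and their summed log2 signal was 19.1 to 19.7 in leaf and 19.0 to 19.3 in stomata. Of 8 vascular markers 4 were called higher in each (medians 0.68 to 0.96) and 2, 2, 1 and 1 lower, which were XCP1, a xylem peptidase, in all 4 (-1.53, -1.47, -1.23 and -1.25) and SWEET12, a sucrose exporter, in both control comparisons (-1.94 and -1.95). The 4 called higher in bam1 drought, among them SUC2, APL and AHA3, differed by 1.5 to 2.9. The summed log2 signal of the vascular markers was 15.6 to 16.0 in leaf and 17.4 to 18.0 in stomata. The removal of larger veins applied to the stomatal preparations. Of 7 epidermis markers 1, 2, 3 and 3 were called higher (medians 0.22 to 0.88), and 2 in Col-0 control without leaf Col-0 control replicate 2. How far mesophyll RNA contributes to the photosystem signals of the stomatal arrays was not tested.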

How the data were processed

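The deposited scanner output held the intensity of each spot, from which Feature Extraction 11.5.1.1 had, per the file headers, removed background and spatial trends. Other deposited columns flag outlying, saturated and well-above-background spots. A second deposited table held the authors' quantile-normalised, probe-centred log2 values. Here the processed signals were log2-transformed, outlier spots set to missing, values quantile-normalised over the 20 arrays and averaged over a probe's spots. A probe was tested where every array of some group showed it well above background (30665 of 43603). A model with 8 group means was fitted in limma 3.58.1 (R 4.3.3), with 12 residual degrees of freedom and Benjamini-Hochberg adjustment over all tested probes; calls needed adjusted p under 0.05 and 2-fold. Tests are two-sided; replicates are separate pools, and their small number limits the precision. The fit was tested on simulated data. Identifiers were matched to loci through a RefSeq table (34348 probes). Plots used Python 3.11.15 and matplotlib 3.10.9. Members, gene lists and named probes were chosen with earlier results of these data known. By the naming rule, arrays are printed for called members, up to 4 in each direction, and for LHCB1.3, LHCB4.3, PSAD1, PSBO1 and PSBS; of other lists, up to 2 called genes in each direction. Alternatives were other scalings, background correction (normexp, offset 50, on median spot signals because mean signals were not used here), no filter, slide or replicate as a block, other probes for a gene, and leaving out each array.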

Additional observations from a re-analysis of the deposited data

How the results depend on the processing

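Counts of called members in the 4 tissue comparisons were 3, 2, 3 and 1 (Col-0 control, bam1 control, Col-0 drought, bam1 drought), and in the 4 drought comparisons 1, 1, 0 and 0 (leaf Col-0, leaf bam1, stomata Col-0, stomata bam1). In Col-0 control the tissue count was 1 with the authors' matrix, with only the groups compared, with outlier spots kept and with the methods' t-test before or after adjustment. In bam1 control it was 1 with slide as a block, with the mean over probes and with the adjusted t-test, and in Col-0 drought 1, 1 and 0 in that order. In bam1 drought it was 3 by the 75th percentile, 2 with normexp, 3 with the matrix, 3 with outlier spots kept and 6 with the mean over probes. With the brightest probe measured on all 20 arrays the tissue counts were 10 in Col-0 control, 7 in Col-0 drought and 7 in bam1 drought, and with the brightest probe under 16 they were 11, 8 and 9. The drought count in leaf Col-0 was 0 by the 75th percentile, normexp, the matrix, slide as a block, only the groups compared, outlier spots kept, the mean over probes and both t-tests. In leaf bam1 it was 2 with normexp, the matrix or outlier spots kept, and 0 with slide as a block, the mean over probes, the adjusted t-test and both other choices of probe. In stomata bam1 it was 1 with normexp, the matrix, outlier spots kept, the mean over probes and both other choices of probe. Leaving out 1 array gave tissue counts of 1 to 3, 2 to 3, 2 to 4 and 1 to 1, and drought counts of 0 to 3, 1 to 2, 0 to 1 and 0 to 1. The tissue medians by the 75th percentile were 0.14 in Col-0 control and 0.61 in bam1 control. With the mean over probes they were -0.29, -0.19, -0.28 and -0.49, with the probe on all arrays -0.39 in Col-0 control, -0.27 in Col-0 drought and -0.17 in bam1 drought, and with the probe under 16 -0.72, -0.39, -0.60 and -0.59. The drought medians by the 75th percentile were 0.23 in leaf bam1, -0.36 in stomata Col-0 and -0.33 in stomata bam1. With the probe on all arrays they were -0.37 in leaf Col-0 and -0.35 in stomata bam1, with the probe under 16 -0.40, -0.23 and -0.51 in leaf Col-0, stomata Col-0 and stomata bam1, and in stomata bam1 -0.47 with the mean over probes, -0.21 with the matrix and -0.19 with outlier spots kept. Leaving out 1 array gave tissue medians of -0.19 to -0.04, -0.08 to 0.15, -0.06 to -0.02 and 0.05 to 0.10, and drought medians of -0.20 to -0.03, -0.13 to -0.07, -0.08 to 0.01 and -0.12 to 0.00. The PSBO1 difference in bam1 control turned to -0.35 with the mean over probes and to -0.60 with either other choice of probe. Apart from the choice of samples and probes, the causes were not tested. Of the single-gene results, 457 kept their direction and side of the threshold, 49 lost it, 16 gained it and 3 reversed (PSBO1, above); of the counts and medians, 79 moved and 343 did not. The arrays share only a replicate number (correlations of deviations -0.264 to 0.158), and with the replicate number as a block the counts were 3, 2, 3, 1, 1, 1, 0 and 0. Crossed numbers for stomata of bam1, the choice of outlier spots kept and both other choices of probe were added after the data were seen, and the crossed pairing gave 0 calls in stomata bam1. Genotype and interaction counts stayed at 0 under the alternatives run.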
